A study of Mus musculus with 6 samples.

Results

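Hematopoietic stem and progenitor cells (HSPCs) hold to and find their bone marrow niche through a small set of surface receptors. The 10 receptor genes described here were listed by name, Cxcr4, Itga4, Itga6, Itgb1, Itgal, Itgb2, Cd44, Selplg, Esam and Jam3, out of 49315 genes counted in each library, and all 10 were found. Bulk RNA-seq was available for 6 libraries, with 1 library each of LT-HSCs, ST-HSCs and MPPs (long-term and short-term hematopoietic stem cells and multipotent progenitors) from WT mice and from ING4-/- mice, which lack the chromatin reader and tumor suppressor ING4. Marrow of 8 to 10 mice was pooled for each genotype, lineage-positive cells were depleted, and 1000 to 10000 cells were sorted into lysis buffer for each population. All cells were Lin- Sca-1+ c-Kit+ CD48-, and LT-HSCs were further gated as CD34- CD150+, ST-HSCs as CD34+ CD150+ and MPPs as CD34+ CD150-. The WT mice of the study were C57BL/6 (CD45.2) and the ING4-/- mice were CD45.2, and the labels give no treatment and no age. As described, the 3 populations of a genotype were sorted from the same pooled marrow, 1 library each. They stand in for replicates in every comparison of genotypes, although they share mice. The p-values measure the spread between these libraries of different cell populations, and no spread between mice or between pools.

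CXCR4 is the receptor for the chemokine CXCL12, which marrow stromal cells release to retain HSPCs. Integrins are pairs of an alpha and a beta chain: α4β1 (VLA-4) binds VCAM-1 and fibronectin, α6β1 (VLA-6) binds laminin, and αLβ2 (LFA-1) binds ICAMs, so Itgb1 and Itgb2 encode shared beta chains and Itga4, Itga6 and Itgal their partners. CD44 binds hyaluronan, and PSGL-1, the product of Selplg, carries the glycans that selectins on the vessel wall hold during rolling. ESAM and JAM-C, the product of Jam3, are immunoglobulin-like molecules of cell junctions that are also used as surface markers of hematopoietic stem cells.

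Total counts were 7839326 to 9363442 in the WT libraries and 35596876 to 39192588 in the ING4-/- libraries. Wherever 3 values of a genotype are given below, they are in the order LT-HSC, ST-HSC, MPP. Ing4 itself had 247, 162 and 247 counts in WT and 0, 24 and 76 counts in ING4-/-, although 34.9% of its exonic length overlaps Gm44597 on the same strand. The WT libraries stood apart from the ING4-/- libraries in a further way that touches every result below. Olfactory and vomeronasal receptor genes, 1429 genes of sensory neurons, had 18.1 to 22.7 counts per kb of exon in WT and at most 0.0853 in ING4-/-, a density that would fill 22.6% to 33.4% of all WT counts and at most 0.0280% of the ING4-/- counts. This density times the exonic length of a gene is called background here, and the genotype and the background cannot be told apart. The sort markers followed their gates: Slamf1, which encodes CD150, had 986, 755 and 336 counts in WT and 3470, 888 and 299 in ING4-/-. Cd34 had 1036, 2199 and 7281 counts in WT and 9500, 22601 and 52899 in ING4-/-.

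Per kb of exon, 3 receptors stood above the others in both genotypes. In WT, the mean level of Itgb1 was 52.5 ± 7.30 CPM per kb (counts scaled to library size by the TMM method; SD, n = 3 populations), that of Selplg 44.6 ± 19.4 and that of Esam 42.4 ± 7.06, and the ranges of these neighbours overlapped. Cd44 followed at 19.3 ± 1.34, clear of the genes above and below it. The lower group held Itgb2 (7.46 ± 2.08), Itga4 (5.65 ± 0.453), Itga6 (5.01 ± 0.400), Jam3 (4.22 ± 0.783), Itgal (3.55 ± 1.94) and Cxcr4 (1.78 ± 0.523), and among these neighbours only the ranges of Itga4 and Itga6 did not overlap. In ING4-/-, Esam led with 118 ± 23.2 CPM per kb, followed by Itgb1 (94.0 ± 11.1) and Selplg (84.4 ± 20.3), again with overlapping ranges. Cd44 (21.3 ± 11.2), Itgb2 (16.6 ± 8.31), Jam3 (8.71 ± 4.62), Cxcr4 (5.89 ± 4.55), Itga6 (4.53 ± 1.42) and Itga4 (3.41 ± 2.39) came next, each overlapping its neighbour. Itgal came last at 0.0270 ± 0.0427 CPM per kb, with no overlap with Itga4.

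**Figure D1:**
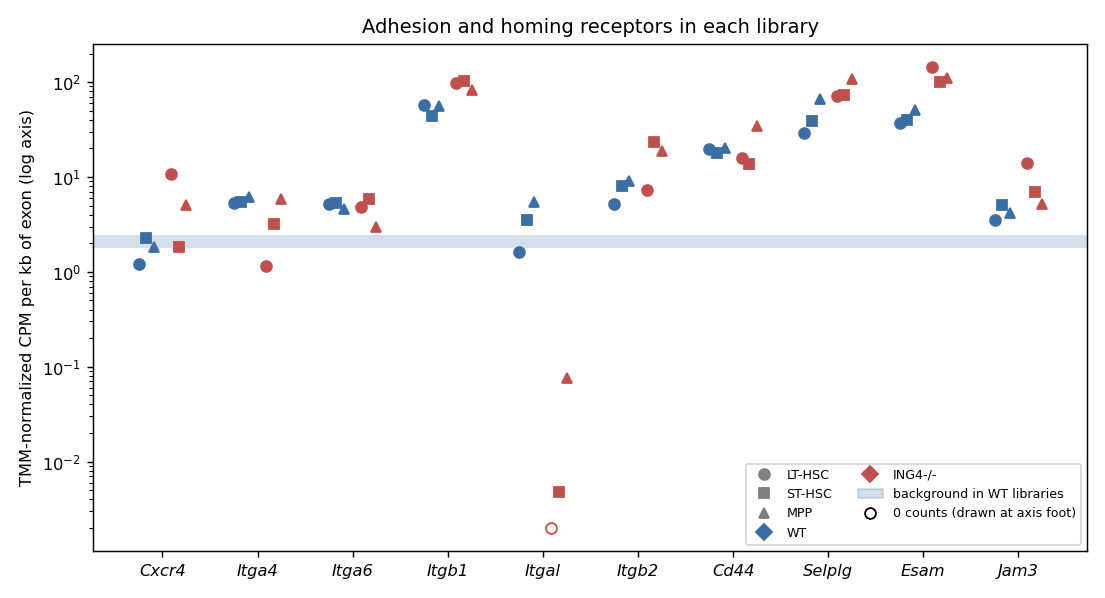
Level of each receptor gene in each of the 6 libraries, as TMM-normalized CPM per kb of exon on a log axis; colours mark the genotype, symbols the population, and the shaded band the background in the 3 WT libraries (1.78 to 2.45 CPM per kb). Itgb1, Selplg and Esam lie highest in both genotypes, WT Cxcr4 lies within or below the band, and the open circle at the axis foot marks Itgal with 0 counts in ING4-/- LT-HSCs.

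The background took very different shares of the receptors' WT counts. It would give at most 5.55% of the Itgb1 counts, 8.19% of the Selplg counts, 6.36% of the Esam counts and 13.8% of the Cd44 counts in any WT library. For Itga4, Itga6, Itgb2 and Jam3 the share lay between 19.4% and 67.6%. For Cxcr4 it was 96.2% to 193%, and for Itgal 32.2% to 144%.

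**Figure D2:**
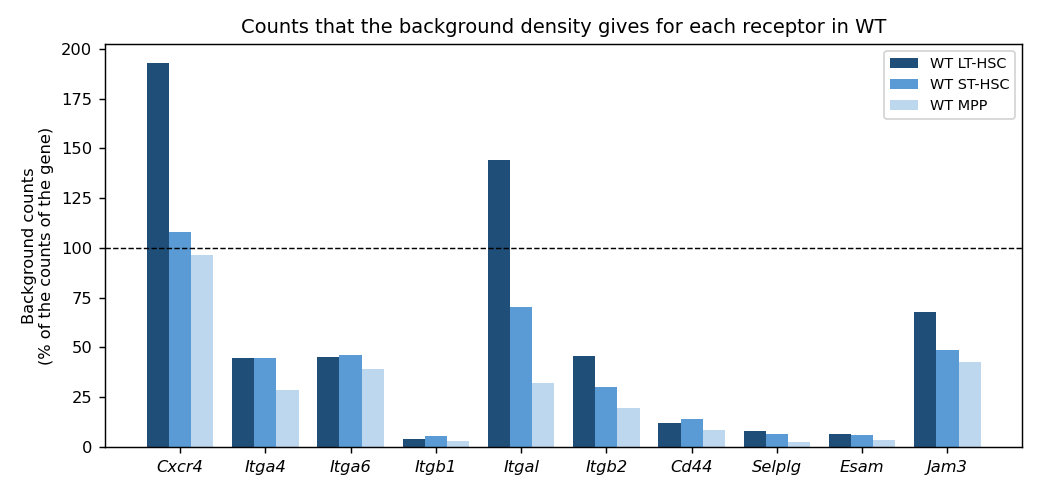
Background counts as a percentage of the counts of each receptor gene in each WT population; the dashed line marks 100%, where background alone would give all counts. Cxcr4 stands at 193%, 108% and 96.2% and Itgal at 144%, 70.1% and 32.2%, while Itgb1, Selplg and Esam stay under 10%.

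For the receptors with a RefSeq promoter entry, the 250 bases before the annotated start are given on GRCm38.p6, read 5′ to 3′ along the gene's strand. Of the 10 receptors 4 had one, Cxcr4, Itga4, Itgb1 and Cd44. The chemokine receptor and the chains of VLA-4 are shown because the values below turn on them. Capitals mark GC boxes (GGGCGG or its complement CCGCCC, bound by SP1-type factors) and, in Cxcr4, the motif of NRF1, the run that leads into its last GC box. The windows are chr1:128592300-128592549 on the minus strand for Cxcr4, chr2:79255176-79255425 on the plus strand for Itga4 and chr8:128685404-128685653 on the plus strand for Itgb1.
Cxcr4: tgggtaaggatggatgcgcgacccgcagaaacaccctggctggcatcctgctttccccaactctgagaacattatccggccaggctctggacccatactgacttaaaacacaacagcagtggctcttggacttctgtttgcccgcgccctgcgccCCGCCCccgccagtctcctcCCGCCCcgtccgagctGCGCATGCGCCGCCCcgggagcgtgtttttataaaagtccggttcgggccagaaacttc
Itga4: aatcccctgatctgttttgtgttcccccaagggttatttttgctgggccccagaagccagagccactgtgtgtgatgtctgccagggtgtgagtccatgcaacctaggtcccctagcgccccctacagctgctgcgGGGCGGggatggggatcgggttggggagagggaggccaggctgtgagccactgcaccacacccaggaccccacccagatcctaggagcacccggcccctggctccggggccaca
Itgb1: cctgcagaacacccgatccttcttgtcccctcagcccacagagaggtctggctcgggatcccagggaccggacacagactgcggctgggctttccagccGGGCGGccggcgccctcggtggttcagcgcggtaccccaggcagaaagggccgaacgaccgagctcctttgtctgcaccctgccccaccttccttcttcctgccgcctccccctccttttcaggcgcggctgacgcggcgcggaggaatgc
The Cxcr4 window held 3 GC boxes and 1 NRF1 motif, and the last GC box shares its first base with the end of the NRF1 motif. Itga4 and Itgb1 held 1 GC box each, and Cd44 none. Among 32841 mouse promoters of the same length, counting both strands, 32.7% held a GC box and 0.783% the NRF1 motif. The RUNX motif TGTGGT, found in 14% of promoters, was in the Itga4 window once. The ETS core GGAA, found in 93.5%, had 4 matches in Itgb1, 8 in Cd44 and 1 each in Cxcr4 and Itga4. The HIF core ACGTG, found in 16.6%, was in the Cd44 window alone. The E-box CACGTG (6.02%) and the NF-kappaB motif (1.41%) were in none of the 4. These matches describe letters only.

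Genotypes were compared with edgeR's quasi-likelihood test, 3 ING4-/- against 3 WT libraries, and a gene was called at a Benjamini-Hochberg adjusted p under 0.05 over 31001 genes tested with a log2 fold change beyond 1 in size. Of the 10 receptors, 1 was called higher in ING4-/- (Esam) and 1 lower (Itgal), where 7.98% of all genes tested were called higher and 56.7% lower. The count of receptors called higher is close to that share, and the count called lower is under it. Under a count minimum of 10 for each of the 6 libraries, 9 receptors remained and none was called by edgeR (the lowest-count receptor, Itgal, was not tested there), and over those 9673 genes 8.3% were called higher and 9.68% lower. The median log2 fold change was -6.85 over all genes tested and 0.52 over the 9673 genes. This second median moved between 0.020 and 1.12 with the scaling of the libraries. It was 0.020 under the count minimum, where the libraries were scaled anew, which also lowered the fold changes of genes with many counts. With population as a block in that fit it was -0.055. Relative to the median of 0.52, the log2 fold change was 1.20 for Cxcr4, 0.95 for Esam, 0.63 for Itgb2, 0.52 for Jam3, 0.40 for Selplg and 0.32 for Itgb1. It was -0.38 for Cd44, -0.67 for Itga6, -1.25 for Itga4 and -7.50 for Itgal, so that 6 of the 10 receptors lay above the median gene and 4 below. This split depended on the setting, relative to the median of the same fit. With the trend of fold change on length removed, Itga4 (0.17), Itga6 (0.14) and Cd44 (0.066) also lay above. After subtraction of background, Itgb1 (-0.16) and Selplg (-0.051) lay below, and Itgal was not tested.

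**Figure D3:**
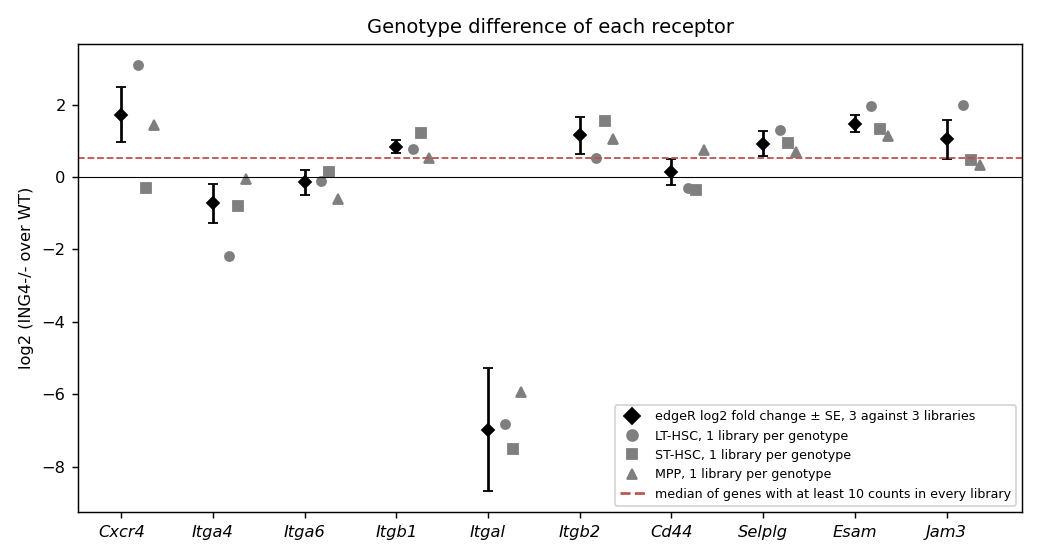
Log2 fold change of each receptor gene, ING4-/- over WT, with black diamonds and bars for the edgeR estimate ± SE over 3 against 3 libraries and grey symbols for the log2 ratio within each population, 1 library per genotype; the dashed line marks the median of the 9673 genes above the count minimum (0.52). Esam lies at 1.48, Itgal at -6.98, and Cxcr4 has the widest spread of ratios between populations.

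Cxcr4 (chr1:128588199-128592293 on GRCm38, minus strand) had the widest spread of the genotype ratio between populations. In WT it had 21, 38 and 34 counts, where background alone would give 40.5, 41.1 and 32.7. In ING4-/- it had 611, 104 and 310 counts, with background under 1 count. As TMM-normalized CPM, the WT levels were 2.21, 4.09 and 3.34 and the ING4-/- levels 19.5, 3.29 and 9.14. ING4-/- LT-HSCs were highest and MPPs next, and ING4-/- ST-HSCs lay within the WT range, so the groups overlapped. The log2 fold change of 1.73 (SE 0.772) did not pass the test (edgeR adjusted p = 0.0874), and the log2 ratios within the 3 populations were 3.09, -0.31 and 1.43. Without the ING4-/- LT-HSC library the fold change was 0.98, and without the ING4-/- ST-HSC library it was 2.18 and was called (adjusted p = 0.019). After subtraction of background the estimate was 7.39 (adjusted p = 0.0050), which rests on the added prior count since almost no WT counts were left. Ackr3, which encodes the other receptor for CXCL12, had 39, 34 and 32 counts in WT and 0 in each ING4-/- library. It passed the filter on low counts only through the WT libraries, and the share of background in its WT counts was not worked out. Fewer expressing cells and less RNA per cell cannot be told apart in any of these bulk values.

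Among the β1 integrin genes, the shared beta chain passed the test with higher levels in ING4-/-, and neither alpha chain passed it. Itgb1 (chr8:128685654-128733200, plus strand) was at 231.8, 179.9 and 231.2 CPM in WT and at 395.5, 421.6 and 333.6 CPM in ING4-/-. Every ING4-/- library was above every WT library. Its log2 fold change of 0.84 (SE 0.186) passed the test but not the fold threshold (edgeR adjusted p = 0.00493). Under the count minimum it was 0.34 (adjusted p = 0.22), and after subtraction of background 0.090 (adjusted p = 0.72). Relative to the median gene of the same fit, Itgb1 was at 0.32 both in the main fit and under the count minimum, and at -0.16 after subtraction.

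Itga4 (chr2:79255426-79333123, plus strand) was at 74.0, 76.9 and 86.1 CPM in WT. In ING4-/- it was at 16.2, 44.1 and 82.6 CPM. The lowest values were those of the ING4-/- stem cells, while ING4-/- MPPs reached the WT range. The log2 fold change of -0.73 (SE 0.549) did not pass the test (edgeR adjusted p = 0.286), with within-population log2 ratios of -2.19, -0.80 and -0.060. Without the ING4-/- MPP library it was -1.36 and was called lower (adjusted p = 0.045). Background would give 28.8% to 44.5% of its WT counts, and Itga4 has the longest exonic sequence of the 10 receptors (13978 bases). Removal of the trend of fold change on length turned the estimate to 0.81. On the opposite strand Cerkl overlaps 8.04% of that sequence, and the strand setting of the counts is not given in the sources used here.

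Itga6 (chr2:71745616-71858416, plus strand) showed no difference past the test. It was at 46.97, 47.7 and 41.1 CPM in WT and at 43.2, 52.4 and 27.1 CPM in ING4-/-. The groups overlapped, with ING4-/- MPPs lowest and ING4-/- ST-HSCs highest. The log2 fold change was -0.15 (SE 0.344, edgeR adjusted p = 0.736) and turned to 0.78 with the length trend removed, to 0.45 with upper-quartile normalization and to 0.10 without the ING4-/- MPP library.

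The balance of chains per kb followed from these levels. The level of Itgb1 was 10.7, 8.02 and 9.19 times that of Itga4 in WT, and 83.8, 32.7 and 13.8 times in ING4-/-. The ratio of Itgb1 to Itga6 was 10.9, 8.34 and 12.4 in WT and 20.3, 17.8 and 27.2 in ING4-/-. As counted, both ratios were higher in each ING4-/- population than in any WT population. After subtraction of background this separation was lost. The WT ratios were then 18.5, 13.6 and 12.5 to Itga4, against 13.8 in ING4-/- MPPs, and 19.1, 14.7 and 19.7 to Itga6, against 17.8 in ING4-/- ST-HSCs.

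Of the chains of LFA-1, the alpha chain had almost no counts in ING4-/-, and background would give 144%, 70.1% and 32.2% of its WT counts. Itgal (chr7:127296260-127335138, plus strand) had 102, 213 and 369 counts in WT and 0, 1 and 17 counts in ING4-/-, in deeper libraries. The groups did not overlap, and Itgal was called lower with a log2 fold change of -6.98 (SE 1.69, edgeR adjusted p = 0.00769). It passed the filter on low counts only through the WT libraries, so it had to differ, and the call supports nothing further. Against a floor of 3 counts per library, it was at least 112-fold lower in ING4-/- LT-HSCs. In MPPs, where 17 counts were found, it was 72.2-fold lower. Background would give 147, 149 and 119 counts of Itgal in the WT libraries, so the WT LT-HSC value was under background and the WT MPP value was above it.

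Itgb2 (chr10:77530252-77565708, plus strand), which encodes the partner chain, was at 15.7, 24.7 and 28.0 CPM in WT and at 22.4, 71.7 and 57.5 CPM in ING4-/-. In each population the ING4-/- library was the higher of the pair, and the groups overlapped through the ING4-/- LT-HSC library. Its log2 fold change of 1.15 (SE 0.514) did not pass the test (edgeR adjusted p = 0.0873), and without the ING4-/- LT-HSC library it was 1.53 and was called (adjusted p = 0.0084). The genes for the other alpha chains of β2, looked up after the values of Itgb2 were seen, were at 0 in each ING4-/- library except Itgam in MPPs. Itgam had 12, 34 and 44 counts in WT and 0, 0 and 106 in ING4-/-. Itgax had 37, 16 and 76 counts in WT, Itgad had 79, 55 and 117, and both had 0 in ING4-/-. Both passed the filter on low counts only through the WT libraries. The WT background was 18.1 to 22.7 counts per kb of exon, and its share of these WT counts was not worked out. Granulocyte markers, a list of 8 genes whose cells carry much β2 integrin, summed to 43.2 to 187 CPM in WT and to 73.7, 176 and 319 CPM in ING4-/-, with at most 1 of the 8 at 0 in any library. Mpo, which progenitors also express, gave 9107 of the counts in ING4-/- MPPs. The study's lineage panel holds Gr-1 and CD11b, which granulocytes carry, and the purity of the sorted cells is not given in the sources used here. The part of granulocytes in the Itgb2 values was not tested.

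Of the receptors for hyaluronan and selectins, Selplg passed the test with higher levels in ING4-/- and Cd44 did not. Selplg (chr5:113818536-113832644, minus strand) was at 123, 165 and 283 CPM in WT and at 306, 316 and 461 CPM in ING4-/-. The 3 ING4-/- values lay above the 3 WT values, and in both genotypes MPPs were highest and LT-HSCs lowest. The log2 fold change of 0.92 (SE 0.343) passed the test but not the fold threshold (edgeR adjusted p = 0.0477). It passed both without the ING4-/- LT-HSC library and without the WT MPP library, and it no longer passed the test without the WT LT-HSC, WT ST-HSC, ING4-/- ST-HSC or ING4-/- MPP library (adjusted p of 0.054 to 0.12, range over all 6 from 0.67 to 1.19). Under the count minimum it was 0.44 (adjusted p = 0.29), and after subtraction of background 0.20 (adjusted p = 0.67). Relative to the median gene of the same fit, Selplg was at 0.40 in the main fit, 0.42 under the count minimum and -0.051 after subtraction.

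Cd44 (chr2:102811141-102901665, minus strand) was at 133, 120.3 and 138 CPM in WT and at 107.7, 93.0 and 232 CPM in ING4-/-. The ING4-/- MPP library was the highest of the 6, and the other ING4-/- libraries were the lowest. The log2 fold change was 0.14 (SE 0.366, edgeR adjusted p = 0.756), and it turned to -0.35 without the ING4-/- MPP library and to -0.21 with DESeq2.

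Of the junctional receptors, Esam was called higher in ING4-/- and Jam3 was not called. Esam (chr9:37528078-37538319, plus strand), an adhesion molecule shared by endothelium, platelets and stem cells, was at 106, 114 and 145 CPM in WT and at 414, 287 and 316 CPM in ING4-/-. Every ING4-/- library exceeded every WT library by a wide margin, with LT-HSCs highest in ING4-/- and lowest in WT. Esam was called higher with a log2 fold change of 1.48 (SE 0.223, edgeR adjusted p = 0.000885), and it kept the call without each of the 6 libraries in turn (1.34 to 1.61). The fold change was 0.98 under the count minimum (adjusted p = 0.013) and 0.75 after subtraction of background (adjusted p = 0.026), both under the fold threshold. Every library held at least 1010 counts of Esam, so the count minimum acted on its fold change through the scaling of the libraries. Relative to the median gene of the same fit, Esam was at 0.95 in the main fit, 0.96 under the count minimum and 0.50 after subtraction.

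Jam3 (chr9:27097384-27155421, minus strand) was at 11.2, 16.1 and 13.2 CPM in WT and at 44.7, 22.3 and 16.7 CPM in ING4-/-. The groups did not overlap, and the gap between the WT ST-HSC and the ING4-/- MPP library was small. Its log2 fold change of 1.04 (SE 0.534) did not pass the test (edgeR adjusted p = 0.127). Background would give 42.9% to 67.6% of its WT counts. Gm48796 overlaps 36.2% of the exonic length of Jam3 on the opposite strand and had 23, 89 and 82 counts in WT and 6, 8 and 4 in ING4-/-.

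Cxcr4, Esam and Jam3 shared their highest value in ING4-/- LT-HSCs, and so did the sum of 7 endothelial markers. The 7 endothelial markers summed to 308 to 402 CPM in WT, of which background would give 74.4 to 103 CPM, and to 707, 200.4 and 230.2 CPM in ING4-/-. Of the ING4-/- LT-HSC sum, Tie1 gave 14505 of the counts. By log2 ratio of ING4-/- over WT LT-HSCs, 4 of the 7 were positive (Plvap 4.40, Flt4 2.13, Tie1 1.04 and Emcn 0.83) and 3 negative (Stab2 -0.22, Kdr -2.47 and Cdh5 -3.16). None of the 7 was at 0 in ING4-/- LT-HSCs, and 3 of the 7 were at 0 in each of the other ING4-/- libraries. The 5 megakaryocyte and platelet markers summed to 81.4 to 113 CPM in WT and to 205, 523 and 111 CPM in ING4-/-. Their part in the receptor values was not tested. The 10 stromal markers summed to 124 to 139 CPM in WT, where background would give 124 to 172, and to 20.3 to 47.8 CPM in ING4-/-. The 5 B cell markers summed to 93.7, 77.1 and 75.1 CPM in WT and to 112, 80.6 and 64.6 in ING4-/-, where all counts were of Cd79b. The 5 T and NK cell markers summed to 55.6, 90.0 and 132 CPM in WT and to 26.9, 267 and 228 in ING4-/-, where nearly all counts were of Nkg7 and at least 3 of the 5 were at 0 in each library. The 5 erythroid markers summed to 37.8 to 42.7 CPM in WT, at or near their background of 28.6 to 39.4, and to 84.4, 66.3 and 5.19 CPM in ING4-/-.

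Over the 10 receptors, 4 had no overlap between genotypes with ING4-/- above (Itgb1, Selplg, Esam and Jam3), 1 had none with ING4-/- below (Itgal), and 5 overlapped. Over all genes tested 12% stood apart with ING4-/- above and 62.9% with ING4-/- below, and over the 9673 genes above the count minimum the shares were 35.9% and 13.1%. The count of 4 is near the share among genes of comparable counts.

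The question of stem cell against progenitor was put to the same libraries with genotype as a term, 2 libraries per population. Selplg was higher in MPPs than in LT-HSCs by 0.90 on the log2 scale (SE 0.228), and it was the only receptor with an unadjusted p under 0.05, while its adjusted p from edgeR was 1. Over libraries left out the difference was 0.51 to 1.15, and it was 0.64 without the WT MPP library. With DESeq2, Itgal was the only receptor with an unadjusted p under 0.05. Itgal (3.65, SE 1.81), Itga4 (1.25, SE 0.612) and Itgb2 (1.08, SE 0.562) had positive log2 fold changes, and Jam3 (-0.66, SE 0.912) and Cxcr4 (-0.49, SE 1.67) negative ones, all with adjusted p = 1 in edgeR. No receptor was called, nor was any of 36170 genes tested (0%), while 564 genes (1.56%) had an unadjusted p under 0.05 and DESeq2 called 435 genes, none of them a receptor. Between ST-HSCs and LT-HSCs no receptor and no gene was called either (0%), 624 genes (1.73%) had an unadjusted p under 0.05, and DESeq2 called 285 genes with no receptor among them. Both comparisons share the LT-HSC libraries.

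The steps from LT-HSCs to MPPs had opposite signs in the genotypes for Cxcr4, Jam3 and Esam. The log2 difference of Cxcr4 was 0.57 in WT, between counts at background, and -1.09 in ING4-/-. That of Jam3 was 0.24 in WT and -1.41 in ING4-/-, and that of Esam 0.44 and -0.39. Itga4 (0.22 in WT and 2.35 in ING4-/-), Cd44 (0.047 and 1.10), Itgb2 (0.83 and 1.36), Selplg (1.20 and 0.59) and Itgal (1.74 and 2.64) were positive in both, and Itga6 (-0.19 and -0.67) and Itgb1 (-0.0040 and -0.25) negative in both. These are differences between single libraries, with no replicate and no test.

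**Figure D4:**
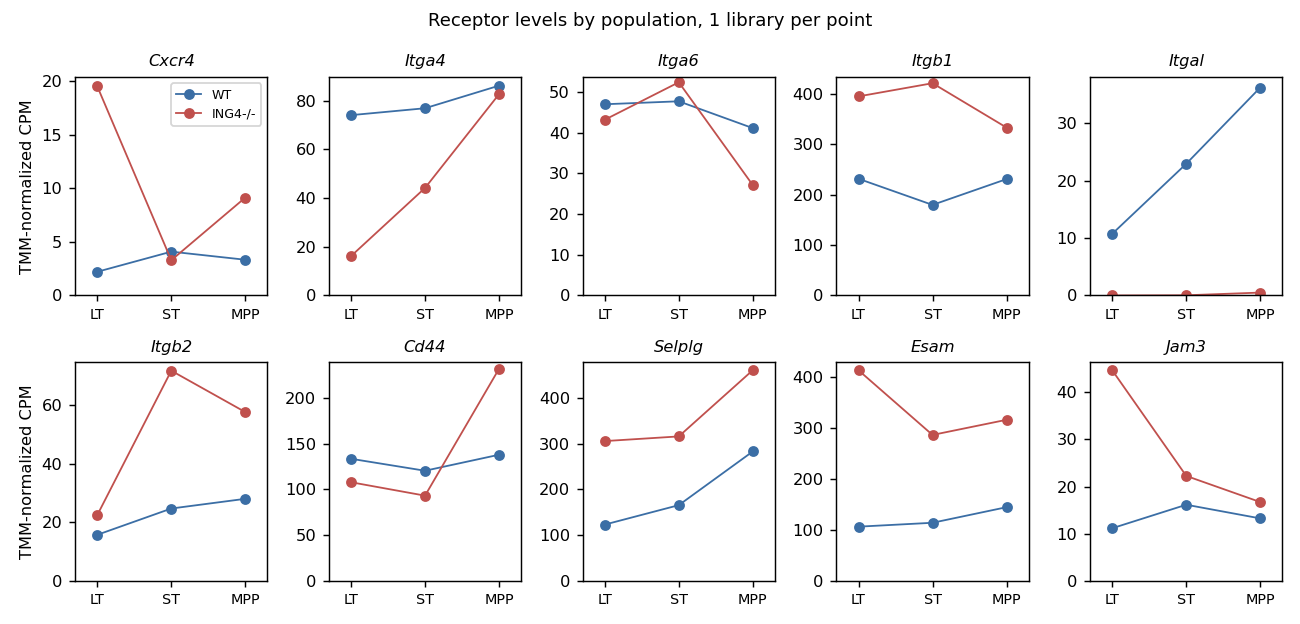
TMM-normalized CPM of each receptor gene in LT-HSCs (LT), ST-HSCs (ST) and MPPs, with 1 library per point, lines joining the libraries of a genotype, and each panel on its own axis from 0. Selplg is highest in MPPs in both genotypes, Itga4 goes from 16.2 to 82.6 CPM in ING4-/- against 74.0 to 86.1 CPM in WT, and Cxcr4 is highest in ING4-/- LT-HSCs.

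The wider adhesion and homing machinery was taken from 5 gene lists, with 20, 30, 16, 18 and 20 genes tested. In all, 19 genes were called higher and 25 lower in ING4-/-, to be read against the 7.98% and 56.7% over all genes tested. Of 20 further integrin genes tested 1 was called higher and 11 lower (median log2 fold change -5.40), and 9 of the 11 had at most 3 counts in every ING4-/- library. The share called lower is near that over all genes. Itgb7, the partner of α4 in the gut-homing integrin, rose from 128, 97 and 322 counts in WT to 2487, 1151 and 2145 in ING4-/- (log2 fold change 1.69, SE 0.547, edgeR adjusted p = 0.0281), a call lost under the count minimum (1.23, adjusted p = 0.13). Itgav, the vitronectin receptor chain, fell, with 519, 432 and 475 counts in WT against 350, 330 and 646 in the deeper ING4-/- libraries (-1.86, SE 0.406, edgeR adjusted p = 0.00464).

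Of 30 genes for integrin activation and cytoskeletal adapters, 8 were called higher, 3 lower and 19 not (median 0.46). Of the 3 called lower, 2 had at most 3 counts in every ING4-/- library, and Parva had 0, 0 and 4. They passed the filter on low counts only through the WT libraries, so these calls support nothing further. Rap1b, a small GTPase that activates integrins through talin, rose by 2.77 on the log2 scale (SE 0.507, edgeR adjusted p = 0.00194). Its counts were 400, 410 and 618 in WT and 6613, 19246 and 6283 in ING4-/-, highest in ST-HSCs.

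Of 16 genes for selectin ligands and the enzymes that build their glycans, 4 were called higher and 2 lower (median 0.81). Cd24a, a ligand of P-selectin, rose by 1.37 (SE 0.301, edgeR adjusted p = 0.00473), and under the count minimum was no longer called (0.87, adjusted p = 0.061). Among sialyltransferases, St3gal3 rose by 1.84 (SE 0.626, edgeR adjusted p = 0.0341) and St3gal6 fell by 1.5 (SE 0.483, edgeR adjusted p = 0.0276). Both add sialic acid to glycans, a step in the making of selectin ligands. Under the count minimum St3gal3 lost its call (1.37, adjusted p = 0.10) and St3gal6 was called lower (-2.01, adjusted p = 0.024), while after subtraction of background neither was called.

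Of 18 Ig-like and junctional genes tested, 3 were called higher and 4 lower (median -0.24). Among the 4 called lower, 3 had at most 3 counts in every ING4-/- library, and Cdh1 had 0, 4 and 0. All 4 passed the filter on low counts only through the WT libraries. Icam2, a ligand of LFA-1, rose by 1.54 (SE 0.466, edgeR adjusted p = 0.0213). F11r, which encodes JAM-A of the same family as Jam3, rose by 1.30 (SE 0.465, edgeR adjusted p = 0.0411). Neither was called under the count minimum, where Icam2 was at 1.06 (adjusted p = 0.11) and F11r at 0.80 (adjusted p = 0.22). Of 20 other homing and retention receptors, 3 were called higher and 5 lower (median 0.18). Among the 5 called lower, 4 had at most 3 counts in every ING4-/- library, and Nrp1 had 1, 0 and 6. All 5 passed the filter on low counts only through the WT libraries. The tetraspanins Cd63 and Cd9, partners of integrins in the membrane, rose by 1.85 (SE 0.164, edgeR adjusted p = 0.000657) and 1.78 (SE 0.318, edgeR adjusted p = 0.00177). Cd63, Cd9, Rap1b and Itgav were also called under the count minimum and after subtraction of background. Under the count minimum, 5, 24, 12, 10 and 12 genes of the 5 lists remained. Together they had 5 genes called higher and 5 lower, to be read against 8.3% and 9.68% of all 9673 genes. The medians of the lists lay between 0.063 and 0.37, against 0.44 for the 9 receptors in the same fit and 0.020 for all 9673 genes. The count minimum removed none of the genes named from these lists. Calls they lost there came with the rescaling of the libraries and the smaller set of genes.

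Genes with the profile most like that of Cxcr4 over the 6 libraries, by root mean square difference of centred log2 CPM among the 9673 genes, were Slc10a3 (0.161), A930004D18Rik (0.167) and Dtx2 (0.197). A930004D18Rik had 21, 42 and 28 counts in WT and 507, 104 and 255 in ING4-/-, close to those of Cxcr4 itself. The genes most like Esam were Ctsd (0.0624), the lysosomal protease cathepsin D, Itm2c (0.0626) and Tnfrsf1a (0.0692), a receptor for TNF. The likeness is over 6 libraries in 2 groups and is a description only.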

How the data were processed

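The 6 files deposited by the authors hold raw read counts for 49315 genes, unscaled. A sequencing company made and sequenced the libraries and ran the initial bioinformatics. The build was mm10 per the submitters' processing notes, and the aligner, the counting program and the strand setting are not given in the sources used here. Symbols and exonic lengths came from GENCODE on GRCm38 (49056 identifiers matched), and promoter sequence from RefSeq on GRCm38.p6.

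From these counts, genes passing filterByExpr were tested in edgeR 4.0.16 under R 4.3.3, after TMM normalization, by the quasi-likelihood F test and Benjamini-Hochberg adjustment, and called at an adjusted p under 0.05 and a log2 fold change beyond 1. SE was taken as the fold change in log2 units over √F. Population comparisons had genotype as a term. No test was possible within a population, and log2 ratios there used a prior count of 2. For a gene with no count the floor was 3 counts, or 0.316 CPM in WT LT-HSCs and 0.0959 CPM in ING4-/- LT-HSCs, and covers counting error only. Deviations from the genotype mean were correlated within each population (r = 0.158, 0.126 and 0.131 for LT-HSCs, ST-HSCs and MPPs over 9673 genes), so populations pair the libraries, and a blocked fit was an alternative. No library was a duplicate of another.

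The receptors and lists were chosen with earlier results of these data known. Named genes were the receptors, Ing4, up to 2 highest and 2 lowest called genes of each list with at least 10 counts in every library, and the 3 genes nearest to Cxcr4 and to Esam. The result for 1 gene named by this rule is not reported here. Ackr3, Itgam, Itgax, Itgad and the marker genes named with values were chosen after their values were seen. DESeq2 1.42.0, other normalizations and filters, background subtraction, thinning to equal depth, removal of the length trend, protein-coding genes only and leaving out each library were alternatives.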

Additional observations from a re-analysis of the deposited data

Results flagged for a closer look

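The genotype ratio had opposite signs in different populations for 3 receptors, each from 1 library per genotype and population. The log2 ratio of ING4-/- over WT for Cxcr4 was 3.09, -0.31 and 1.43 in the order LT-HSC, ST-HSC, MPP. That of Cd44 was -0.31, -0.37 and 0.75. That of Itga6 was -0.12, 0.13 and -0.60. The differences between populations were not tested, since no population had a second library of its genotype. For Cxcr4, the WT counts were near background in all 3 populations.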

How the results depend on the processing

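Genes called higher in ING4-/- (2475) were 4556 under upper-quartile scaling, 1342 using DESeq2's size factors, 1555 with DESeq2, 803 with at least 10 counts in every library, 1108 after background subtraction and 1148 among protein-coding genes. Genes called lower (17566) were 936 with that count minimum, 7646 after background subtraction and 7489 among protein-coding genes. Receptors called higher (1) were 6 with upper-quartile normalization, adding Cxcr4, Itgb1, Itgb2, Selplg and Jam3, 2 without a filter and 0 with the count minimum. Receptors called lower (1) were 0 with the count minimum and after background subtraction, where Itgal was not tested. Wider-list genes called higher (19) were 39, 9, 12, 5, 4 and 9 under the same 6 settings as the genes called higher, and those called lower (25) were 5 with the count minimum and 14 after background subtraction. DESeq2 called 208 genes higher and 227 lower in MPPs against LT-HSCs and 121 and 164 in ST-HSCs against LT-HSCs, where edgeR called 0, and with the count minimum edgeR called 2 higher in MPPs, Cd34 and Mpo.

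With population as replicate block, 1999 genes were called higher and 16880 lower, Esam was at 1.47 (adjusted p = 0.032), and no call of a receptor changed. With the replicate block and the count minimum together, added after seeing the data, 731 genes were called higher and 987 lower, 0 receptors either way, and 4 wider-list genes in each direction.

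The genotype log2 fold change of Cd44 turned to -0.22 with DESeq2's size factors, -0.21 with DESeq2, -0.37 with the count minimum, -0.50 after background subtraction, -0.061 after thinning to equal depth, -0.20 among protein-coding genes and -0.49 with block and minimum. That of Itga6 turned to 0.45 with upper-quartile normalization and 0.78 with the length trend removed, which also turned Itga4 to 0.81. In MPPs against LT-HSCs, Esam turned to -0.11 with upper-quartile normalization, -0.14 with DESeq2, -0.11 with the count minimum and -0.040 after background subtraction, and Cxcr4 to 0.40 after background subtraction. The causes were not tested.

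With each library left out, genes called higher were 1705 to 2804, receptors called higher 1 to 3 and lower 1 to 2, and wider-list genes called higher 12 to 21, Itga6 ranged from -0.35 to 0.10 and Cd44 from -0.35 to 0.40. In MPPs against LT-HSCs, Cxcr4 ranged from -1.59 to 1.11, Itgb1 from -0.40 to 0.11, Esam from -0.47 to 0.40 and Jam3 from -1.52 to 0.22. In ST-HSCs against LT-HSCs, Cxcr4 ranged from -2.36 to 0.50, Itga4 from -0.12 to 1.57, Itga6 from -0.11 to 0.24, Cd44 from -0.66 to 0.088, Selplg from -0.091 to 0.49, Esam from -0.66 to 0.15 and Jam3 from -1.12 to 0.56. After thinning to equal depth Cxcr4 was at 1.52, Itgal at -6.96 and Jam3 at 0.85.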
